A study of Mus musculus with 24 samples.

Results

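The 42 mouse genes described here encode ionotropic and metabotropic glutamate receptor subunits, some of them presynaptic, and postsynaptic auxiliary, scaffold, adhesion and kinase proteins. They were chosen by symbol and looked up in a table of read counts from bulk RNA sequencing of the medial prefrontal cortex. All 42 symbols were found among the 56750 entries of that table, and all 42 passed the filter on low counts that left 20354 genes for testing. By role they comprise 4 AMPA receptor subunits (Gria1 to Gria4), 6 NMDA receptor subunits (Grin1, Grin2a to Grin2d, Grin3a), 6 kainate and delta receptor subunits (Grik1 to Grik5, Grid1) and 6 metabotropic receptors (Grm2, Grm3, Grm4, Grm5, Grm7, Grm8). The remaining members are 3 AMPA receptor auxiliary subunits (Cacng2, Cacng3, Cacng8), 4 MAGUK scaffolds (Dlg1 to Dlg4), 8 scaffolds of the Dlgap, Shank and Homer families, 3 neuroligins and 2 subunits of the kinase CaMKII.

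The study asked how an enriched environment and resocialization act in socially isolated 5xFAD mice. The 24 libraries fell into 6 groups of 4. The isolated groups were SI_EE (isolation with enriched environment), SI_WT and SI_Con (isolation, no further treatment named). The matching GH groups were GH_EE (enriched environment), GH_WT and GH_Con (control). All 24 libraries, those of the WT arm included, carry the genotype label 5xFAD, a transgenic mouse model of amyloid deposition driven by the neuronal Thy1 promoter, and 1 batch date. The labels do not spell out GH or WT, and they tie resocialization to no arm. Age is not given. Nothing states that the libraries of a group came from separate animals, so the p-values measure only the spread between these samples.

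Glutamate released from a presynaptic terminal opens AMPA receptors, which carry the fast current, and NMDA receptors, which admit calcium once the membrane is depolarised. Calcium activates CaMKII, which phosphorylates AMPA receptors and their auxiliary subunits and so changes synaptic strength. PSD-95, encoded by Dlg4, binds NMDA receptors and the auxiliary subunits, and Dlgap, Shank and Homer proteins link that layer to group I metabotropic receptors and to actin. Neuroligins join the postsynaptic membrane to presynaptic neurexins. In the prefrontal cortex these proteins serve working memory and social behaviour, and loss of dendritic spines is a feature of amyloid models.

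Promoter windows were available for 28 of the 42 members, from RefSeq on GRCm38.p6. The 250 bases before the annotated start are shown for 3 members whose expression is described below and which differ in motif content. Gria2 encodes the subunit that makes AMPA receptors impermeable to calcium. Its gene lies at chr3:80681450-80802835 on the minus strand, and its window, chr3:80802836-80803085, was the only member window with the core of the RE1 element (AGCACC, then 2 free bases, then GGACAG, searched on both strands like the other motifs and capitalised here). Grin2c encodes the GluN2C subunit of NMDA receptors, lies at chr11:115249169-115267243 on the minus strand, and has the window chr11:115267244-115267493. Shank3 encodes a scaffold whose loss causes a syndromic form of autism in humans. It lies at chr15:89499623-89560261 on the plus strand, and its window is chr15:89499358-89499607. Capitals mark matches to GGGCGG, the GC box, on either strand in the Grin2c and Shank3 windows.
Gria2: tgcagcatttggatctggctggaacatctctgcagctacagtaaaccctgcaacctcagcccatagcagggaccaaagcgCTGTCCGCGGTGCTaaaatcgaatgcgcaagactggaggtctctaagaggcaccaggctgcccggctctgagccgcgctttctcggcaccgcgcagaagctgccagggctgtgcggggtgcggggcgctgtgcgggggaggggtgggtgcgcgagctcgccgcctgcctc
Grin2c: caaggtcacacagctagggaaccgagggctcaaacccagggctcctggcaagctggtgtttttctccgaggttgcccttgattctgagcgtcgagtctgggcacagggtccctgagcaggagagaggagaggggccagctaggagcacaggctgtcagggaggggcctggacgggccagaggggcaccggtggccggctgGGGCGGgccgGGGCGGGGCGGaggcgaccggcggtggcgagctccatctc
Shank3: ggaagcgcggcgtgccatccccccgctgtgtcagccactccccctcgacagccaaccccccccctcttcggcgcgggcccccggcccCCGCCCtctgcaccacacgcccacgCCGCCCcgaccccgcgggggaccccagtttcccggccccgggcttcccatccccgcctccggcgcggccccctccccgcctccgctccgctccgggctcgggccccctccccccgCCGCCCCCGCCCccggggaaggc
The RE1 core, the binding sequence of the repressor REST, was found in 0.0457% of all 32851 windows of this length. The 28 members had 42 windows, since some genes have more than 1 start. GC boxes were found in 18 of these 42 windows (42.9%), from 16 members, and in 32.7% of all windows. The CRE (TGACGTCA) was in no member window and in 1.55% of all windows. TATAAA was in 3 of the 42 member windows (7.14%) and in 12.4% of all windows. The median GC content was 58.8% for members and 52.4% for all windows. A match describes these letters and does not show that a factor binds.

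Depth ran between 33683587 counts (SI_WT 4) and 51274917 counts (SI_WT 1), and every member was well covered, with at least 145 counts in its lowest library. In SI_EE 1 the cerebellar marker list summed to 8233 CPM (read counts relative to the scaled library total), against 1206 to 1841 CPM in the other 23 libraries. There Gabra6 was at 342 CPM and Pcp2 at 242 CPM, against at most 1.13 CPM and 2.17 CPM in the other libraries. The forebrain pyramidal list summed to 939 CPM in SI_EE 1, against 1643 to 2531 CPM in the others, with Slc17a7 at 584 CPM and Neurod6 at 21.6 CPM. In 4 further libraries, SI_WT 4, SI_Con 2, SI_Con 3 and GH_Con 2, genes with long transcripts read low. The rank correlation across genes between exonic length and deviation from the mean was -0.352, -0.327, -0.276 and -0.245 in these libraries and above -0.2 in every other. Xist was read in 1 of 4 libraries of SI_EE, 3 of 4 of GH_Con and 2 of 4 of each other group. SI_EE 1 and these 4 are the 5 libraries left out in some fits below, and the 19 others are called the 19 retained libraries.

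Per kilobase of exonic length, the members spanned a wide range of levels in the 19 retained libraries. Camk2a, the alpha subunit of CaMKII and one of the most abundant proteins of the postsynaptic density, was highest with a mean of 324 CPM per kb (range 290.1 to 367). Camk2b, its beta subunit, followed at 86.6 CPM per kb. Among AMPA receptor subunits the order per kb was Gria1 (62.4), Gria2 (39.0), Gria3 (28.0) and Gria4 (20.9 CPM per kb). Gria1, which is added to synapses during potentiation, and Gria2 did not overlap across these libraries, with ranges of 53.0 to 70.1 and 34.7 to 46.8 CPM per kb.

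Grin1, the obligatory NMDA receptor subunit, stood at 50.7 CPM per kb. Grin2b, which prevails early in development, stood at 25.4 and Grin2a, which prevails in adult cortex, at 16.5 CPM per kb; their ranges overlapped (17.9 to 31.6 and 13.2 to 18.5 CPM per kb). Grin2c, Grin3a and Grin2d lay at 6.34, 2.73 and 1.83 CPM per kb. The kainate subunit Grik5 (30.4) was the highest of its family and Grik1 (1.62 CPM per kb) the lowest member of all 42. Of the metabotropic receptors, Grm3 (19.7) and Grm5 (18.5 CPM per kb) led, and Grm8 (1.82 CPM per kb) was lowest. Grm5 is the group I receptor bound by Homer proteins, and Grm2 and Grm3 are group II receptors that inhibit adenylyl cyclase.

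Among scaffolds, Dlgap3 (53.9), Dlg4 (49.8) and Shank1 (38.9 CPM per kb) were highest, and Homer2 (4.58) and Homer3 (1.68 CPM per kb) lowest. Nlgn2, the neuroligin of inhibitory synapses, stood at 44.5 CPM per kb, above Nlgn3 (12.4) and Nlgn1 (5.31 CPM per kb), the neuroligin of excitatory synapses. Each level per kb rests on the exonic length of the annotation and not on the isoforms these cells use. The coefficient of variation of a member over the 19 retained libraries, in CPM, had a median of 12% (4.81% for Grin1 to 26.7% for Shank2), against 18.6% for all genes tested.

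The 6 groups held most members at much the same level. With SI_EE 1 left out, the ratio of the highest to the lowest group mean in CPM had a median of 1.21 over the 42 members and was under 1.5 for 41 of them. The exception was Shank2, at 2.04, with its highest mean in GH_EE and its lowest in SI_Con. The mean log2 CPM over the 42 members was 6.73 ± 0.30 in SI_EE, 6.80 ± 0.27 in SI_WT, 6.75 ± 0.26 in SI_Con, 6.95 ± 0.03 in GH_EE, 6.91 ± 0.05 in GH_WT and 6.91 ± 0.11 in GH_Con (SD, n = 4 each). The larger SD of the isolated groups came with 4 libraries: SI_EE 1 at 6.31, SI_WT 4 at 6.39, SI_Con 3 at 6.43 and SI_Con 2 at 6.64 log2 CPM. Without SI_EE 1 and the long-gene-low libraries, the means were 6.88 ± 0.12 in SI_EE (n = 3), 6.94 ± 0.04 in SI_WT (n = 3), 6.96 ± 0.06 in SI_Con (n = 2) and 6.96 ± 0.03 in GH_Con (n = 3). In tissue RNA, fewer cells of a type and less RNA per cell cannot be told apart.

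**Figure D1:**
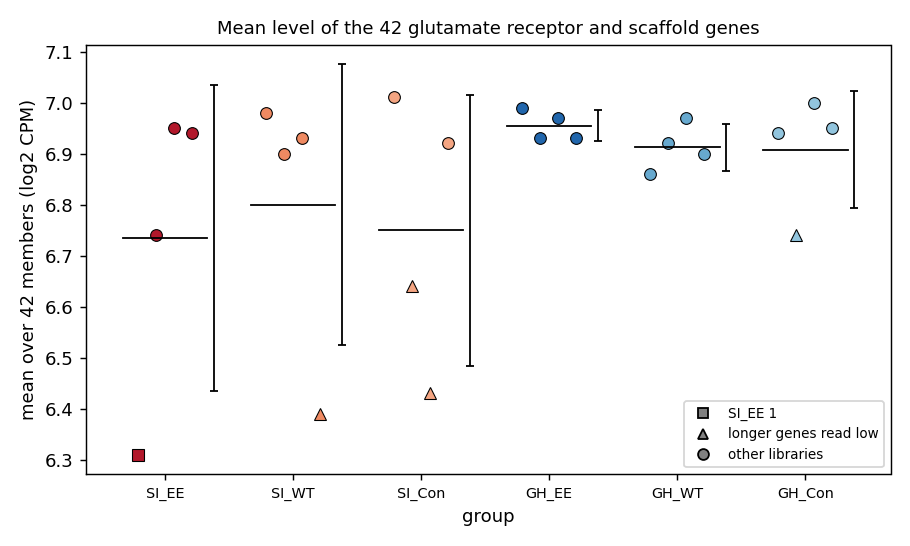
Mean log2 CPM over the 42 members (y axis) in each library, by group (x axis), with the group mean as a line and the SD (n = 4) as a bar. SI_EE 1 (square, 6.31) and the long-gene-low libraries (triangles, 6.39 to 6.74) lie at or below the lowest of the circles, which run from 6.74 (SI_EE 2) to 7.01.

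The members are long genes. Their median exonic length was 8219 bases, against 3643 bases for the 19873 tested genes with an annotated length. In the 4 long-gene-low libraries 36 of 42 members were below their mean in the 19 retained libraries, with a median difference of -0.25 log2 CPM. Over all genes 45.8% were lower there, with a median difference of 0.04. For 7 of 42 members each of these 4 libraries lay below all 19 retained ones, as did 4.90% of all genes tested.

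The difference was most negative for Shank2 (-1.63 log2 CPM), Grin2b (-1.31), Nlgn1 (-1.20), Dlgap2 (-0.93), Grik3 (-0.92) and Gria3 (-0.88). Grin2b, with the longest exonic sequence of the members (24842 bases), was at 193 CPM in SI_WT 4, 281 CPM in SI_Con 2, 211 CPM in SI_Con 3 and 347 CPM in GH_Con 2, against 445 to 785 CPM in the 19 retained libraries. These 4 libraries did not overlap the rest for Grin2b. Across the 42 members the rank correlation of this difference with exonic length was -0.444, a description over genes that share the same libraries. The 4 libraries were picked because their correlation with length over all genes, members included, was under -0.2. Low values of long members in them therefore follow from that choice, and these values do not test it. Differences in RNA quality between libraries were not tested.

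**Figure D2:**
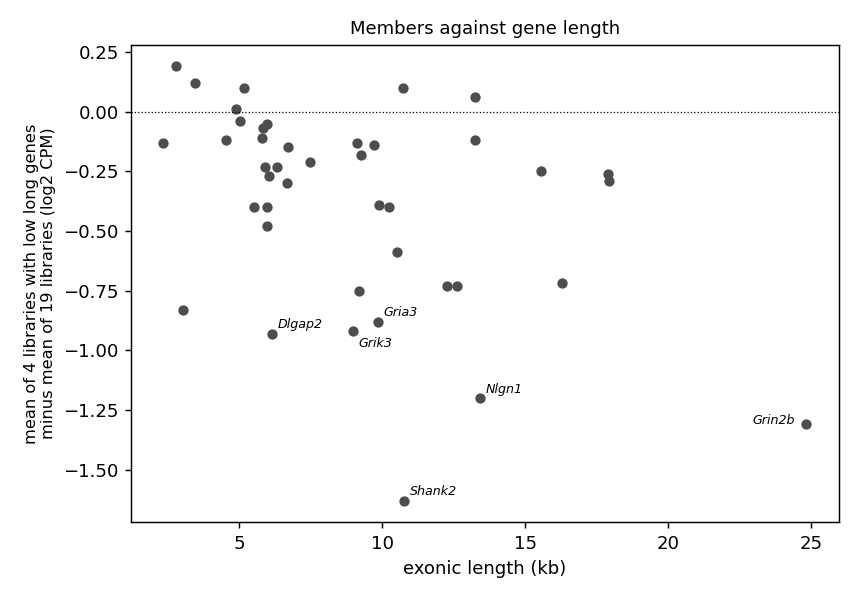
Exonic length in kb (x axis) against the mean of the 4 long-gene-low libraries minus the mean of the 19 retained libraries in log2 CPM (y axis), 1 point per member. Of the 42 points, 36 lie below 0, and Shank2 (-1.63), Grin2b (-1.31) and Nlgn1 (-1.20) lie lowest. The 4 libraries were picked by their length correlation over all genes, so a slope with length follows from that choice.

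**Figure D3:**
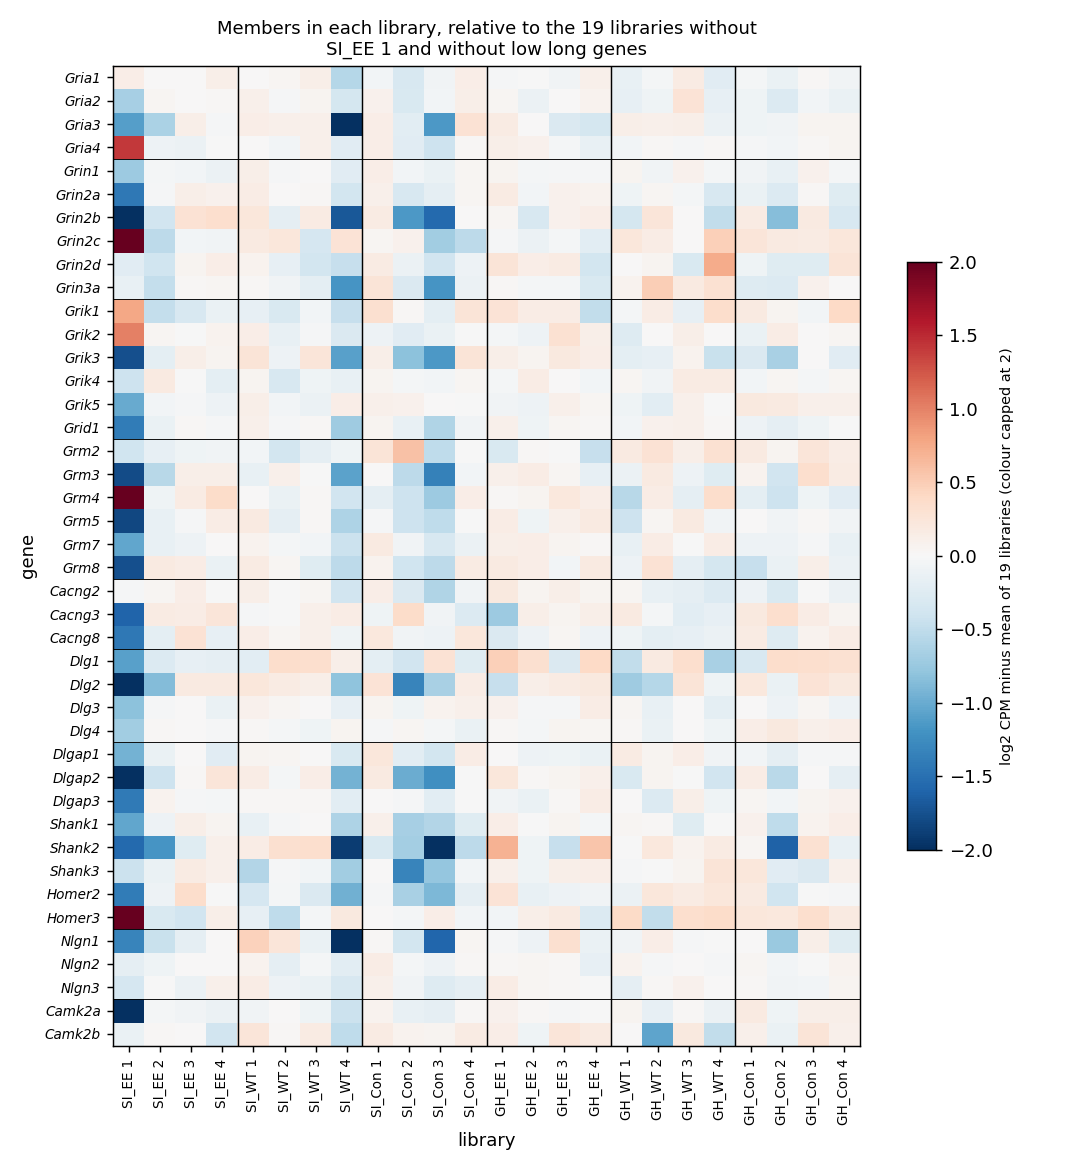
Log2 CPM of each member (rows, by role) in each library (columns, by group) minus its mean in the 19 retained libraries, with colour capped at 2. The column SI_EE 1 is blue for 35 members and red for 7, and SI_WT 4, SI_Con 2, SI_Con 3 and GH_Con 2 show blue cells at long genes such as Shank2 and Grin2b.

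SI_EE 1 differed from every other library in which glutamate receptor genes it held. Its median difference over the members from the mean of the 19 retained libraries was -0.98 log2 CPM (all genes 0.04). It was below that mean for 35 members and above it for 7 (47.8% of all genes below). It was the lowest of the 24 libraries for 25 members and the highest for 6, against 17.6% and 18.9% of all genes. The highest ratios were those of genes known from cerebellar neurons. Homer3, a Homer scaffold of Purkinje cell spines, was at 224 CPM in SI_EE 1 and at 3.99 to 7.36 CPM in the other 23 libraries. That is 38.8 times its mean in the 19 retained libraries. Grm4, a group III presynaptic receptor abundant in granule cells, was at 266 CPM in SI_EE 1, against 21.7 to 46.3 CPM elsewhere. Grin2c, the NMDA subunit of mature granule cells, was at 255 CPM, against 19.4 to 43.7 CPM elsewhere. Gria4 (352 against 99.0 to 144 CPM), Grik2 (126 against 51.5 to 77.1 CPM) and Grik1 (18.2 against 7.57 to 14.1 CPM) were also highest there.

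Several members known from forebrain pyramidal neurons were low in SI_EE 1. Camk2a, a forebrain-enriched kinase, was at 504 CPM, against 1789.5 to 2738 CPM elsewhere. Grin2b was at 65.7 CPM, 0.104 times its mean in the 19 retained libraries, and Dlgap2 at 8.57 CPM, 0.113 times that mean. Grin2a (110.2 CPM, 0.372 times), Grm5 (53.5 CPM, 0.282 times) and Cacng3 (31.8 CPM, 0.324 times) were low as well. Gria1 (412 CPM), Cacng2 (136 CPM), Nlgn2 (227 CPM) and Camk2b (705 CPM) lay within the range of the 19 retained libraries, from 320.2 to 423, 115 to 158, 227 to 284 and 372 to 926 CPM. The low forebrain markers and high cerebellar markers of SI_EE 1 given above go with these values, and their part in each member was not tested.

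**Figure D4:**
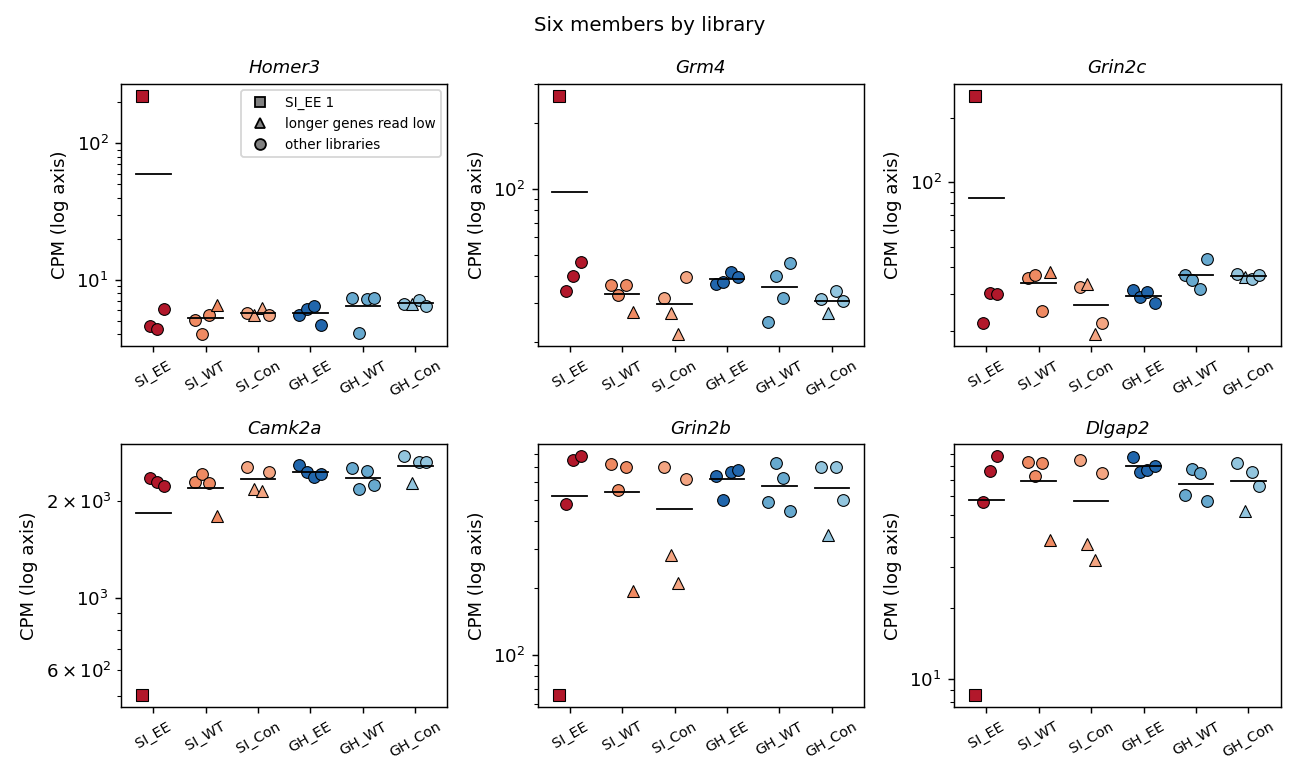
CPM of 6 members (y axis, log scale) in each library by group (x axis), with the group mean as a line. In SI_EE 1 (square) Homer3 (224), Grm4 (266) and Grin2c (255) lie above all other libraries, and Camk2a (504), Grin2b (65.7) and Dlgap2 (8.57) lie below all of them.

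The quasi-likelihood test of edgeR, adjusted by Benjamini-Hochberg over the 20354 genes, called 0 of 42 members in each of 11 contrasts, and limma-voom called 0 in each. DESeq2 called 1 member, Grm4, in 2 of the 11, SI_EE against SI_Con and the test over all 6 groups. Below, unadjusted p under 0.05 is counted as a description, for edgeR beside the share over all genes. For DESeq2 and limma-voom that share is not given, so their unadjusted counts cannot be set against all genes.

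Isolation without further treatment (SI_Con against GH_Con) moved no member past the threshold. Of 42 members 33 were lower in SI_Con, with a median log2 fold change of -0.09 (all genes 0.00, 49.9% lower). With edgeR, 0 members had an adjusted p under 0.05 (0.0% of all genes) and 0 an unadjusted p under 0.05 (6.53% of all genes), and limma-voom gave 1 at unadjusted p, and DESeq2 called 0 (0.187% of all genes) and gave 0. The mean over the list was 0.16 log2 CPM lower in SI_Con (a difference of -0.16, spread SD 0.20), and the difference was 0.00 without the long-gene-low libraries. Without SI_EE 1 as well, 17 of 42 members were lower (53.7% of all genes). Then 0 members were called (0.0237% of all genes) and 4 had an unadjusted p under 0.05 (10.9% of all genes). Of these 4, Dlg4 and Grin2c were lower and Dlgap1 and Grik3 higher. The smallest p was that of Shank3, which had 263, 105, 154 and 253 CPM in SI_Con and 308, 225, 215 and 281 CPM in GH_Con. The groups overlapped, and the adjusted p from edgeR was 0.806.

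Grin2c, Dlg4 and Homer3 were lower in all 4 SI_Con libraries than in all 4 GH_Con libraries (3 of 42; 2.61% of all genes), and no member was higher in this way (1.96% of all genes). Homer3 had 5.69, 5.55, 6.19 and 5.49 CPM in SI_Con, against 6.64, 6.59, 7.15 and 6.46 CPM in GH_Con. Grin2c had 32.2, 33.2, 19.4 and 21.9 CPM in SI_Con, against 37.2, 35.8, 35.1 and 36.6 CPM in GH_Con. The oligodendrocyte list also did not overlap between these groups (3754 to 4154 CPM in SI_Con, against 4552 to 6054 CPM in GH_Con), nor did that of oligodendrocyte precursors (246 to 303 CPM in SI_Con, against 307 to 382 CPM in GH_Con). The astrocyte list averaged 7.28 ± 0.22 log2 CPM in SI_Con and 7.76 ± 0.17 log2 CPM in GH_Con (SD, n = 4 each), and the part of these cell types in the values was not tested. Homer3 shares exons with Ddx49 on the opposite strand, and whether the counts used strand is not given in the sources used here, so its values are uncertain. The same holds for Grin2d and the antisense gene Gm45441.

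Isolation averaged over the 3 arms (12 SI against 12 GH libraries) moved no member past the threshold. In all 24 libraries 34 of 42 members were lower in SI (median log2 fold change -0.11), where 49.2% of all genes were lower (median 0.00). By role, 7 of 8 Dlgap, Shank and Homer genes, 5 of 6 NMDA, 5 of 6 kainate and delta and 5 of 6 metabotropic receptor genes, 4 of 4 MAGUK genes and 3 of 3 neuroligins were lower, and 2 of 4 AMPA subunits. With edgeR, 0 members had an adjusted p under 0.05 (0.0% of all genes); DESeq2 (0.0393% of all genes) and limma-voom called 0 as well. An unadjusted p under 0.05 was found for 2 members (8.61% of all genes), Shank3 and Homer2, which binds group I metabotropic receptors; DESeq2 gave 3 and limma-voom 5.

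Shank3 averaged 252 ± 44.6 CPM in SI_EE, 212 ± 50.9 in SI_WT and 194 ± 76.9 in SI_Con, against 275 ± 19.6 in GH_EE, 275 ± 25.0 in GH_WT and 257 ± 44.7 in GH_Con (SD, n = 4). Its log2 fold change was -0.30 (SE 0.13, edgeR adjusted p 0.548). Homer2 averaged 51.3 ± 21.5 CPM in SI_EE, 44.4 ± 11 in SI_WT and 43.6 ± 12.1 in SI_Con, against 57.4 ± 7.96 in GH_EE, 62.9 ± 6.73 in GH_WT and 55.4 ± 9.03 in GH_Con. Its log2 fold change was -0.34 (SE 0.15, edgeR adjusted p 0.569). The single libraries overlapped for both genes. Without SI_EE 1 the SI_EE mean of Homer2 was 61.2 ± 10.5 CPM (SD, n = 3), above that of GH_EE.

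Without SI_EE 1, 36 of 42 members were lower in SI (51.5% of all genes). Then 6 members had an unadjusted p under 0.05, all lower (7.71% of all genes in either direction, 4.21% lower). They were Grin2c, Grik1, Shank3, Homer2, Homer3 and Camk2a. Without SI_EE 1 and the long-gene-low libraries, 21 of 42 were lower (53.7% of all genes), with a median of 0.00. By role, 4 of 4 AMPA subunits, 3 of 3 auxiliary subunits and 2 of 3 neuroligins were then higher in SI. Lower in SI were 3 of 6 NMDA, 5 of 6 kainate and delta and 4 of 6 metabotropic receptor genes, 2 of 4 MAGUK genes and 5 of 8 Dlgap, Shank and Homer genes. The log2 fold changes were then -0.11 for Shank3 and -0.13 for Homer2. In that fit 5 members had an unadjusted p under 0.05 (9.93% of all genes): Grin2c and Homer3 were lower, and Grik3, Cacng8 and Grin2a higher. Both fits called 0 members (0.0% of all genes).

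**Figure D5:**
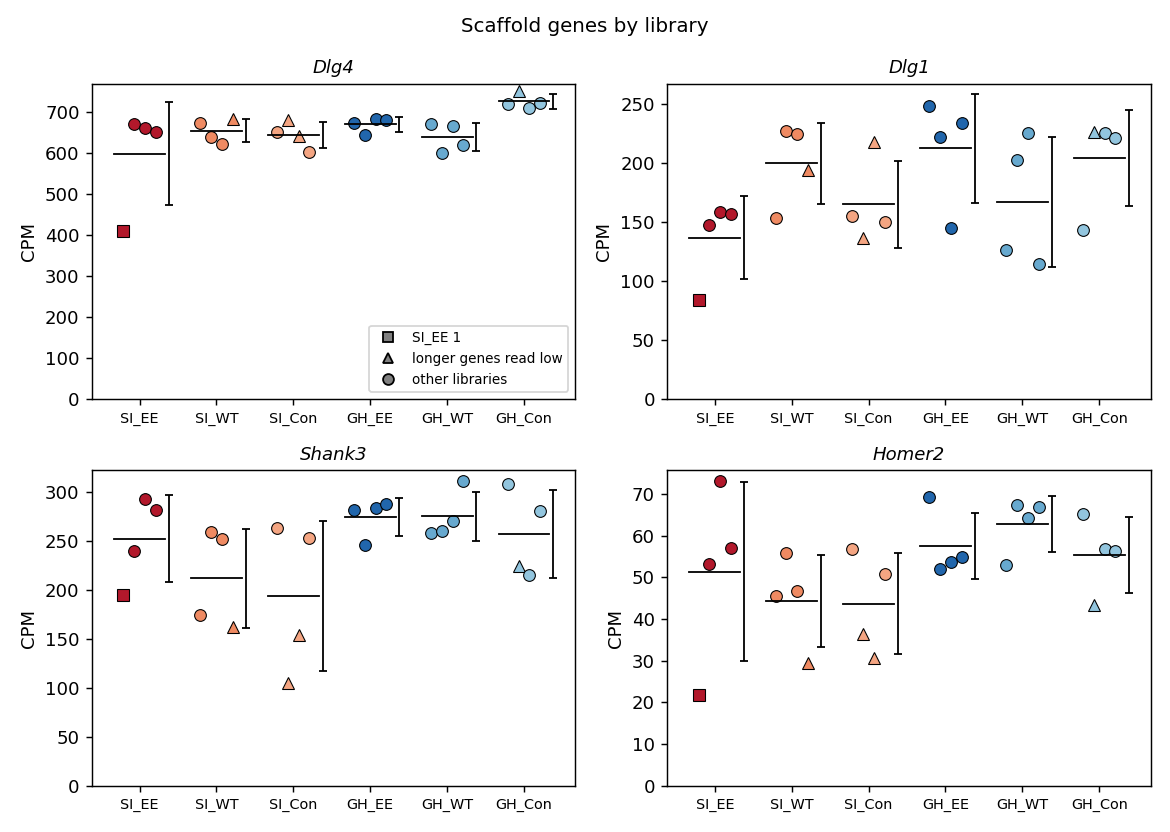
CPM of Dlg4, Dlg1, Shank3 and Homer2 (y axes from 0) in each library by group (x axes), with the mean as a line and the SD (n = 4) as a bar. For Dlg4 the 4 GH_Con libraries (708 to 751) lie above all others. The lowest point of Homer2 is SI_EE 1 (square, 21.8) and that of Shank3 the long-gene-low SI_Con 2 (triangle, 105).

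Enriched environment in isolated mice (SI_EE against SI_Con) gave its lowest p values for genes that were high in SI_EE 1. With edgeR, 0 of 42 members had an adjusted p under 0.05 (0.0% of all genes) and 5 an unadjusted p under 0.05, all higher in SI_EE (12.6% of all genes in either direction, 7.03% higher); limma-voom called 0 and gave 4 unadjusted, DESeq2 called 1 (0.85% of all genes) and gave 3. The 5 were Homer3, Grm4, Grin2c, Grik2 and Gria4. Homer3 had 224, 4.58, 4.37 and 6.15 CPM in SI_EE, against 5.69, 5.55, 6.19 and 5.49 CPM in SI_Con (log2 fold change 3.38, SE 0.89, edgeR adjusted p 0.178). The groups overlapped, and without SI_EE 1 the fold change was -0.18. Grm4 had 266, 34, 40.1 and 46.3 CPM in SI_EE, against 31.6, 27.0, 21.7 and 39.4 CPM in SI_Con. Its log2 fold change was 1.69 (SE 0.45, edgeR adjusted p 0.178; 0.0187 with DESeq2), and without SI_EE 1 it was 0.43 (edgeR adjusted p 0.452).

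Without SI_EE 1, 29 of 42 members were higher in SI_EE and 13 lower (median 0.08), against 49.0% of all genes lower (median 0.01). In that fit 0 members were called (0.00483% of all genes) and 4 had an unadjusted p under 0.05 (10.5% of all genes). Of these, Grm4, Shank3 and Homer2 were higher and Grik1 lower. Without the long-gene-low libraries as well, 0 were called (0.0142% of all genes) and 3 had an unadjusted p under 0.05 (7.19% of all genes), Dlgap1, Grik1 and Grin1, all lower. The mean over the list differed by -0.01 log2 CPM with all libraries, by 0.13 without SI_EE 1 and by -0.08 without the long-gene-low libraries as well, so its direction followed the libraries used. In all 24 libraries Grik2 was higher in every SI_EE library than in every SI_Con library (1 of 42; 2.24% of all genes). Grik5, which forms high-affinity kainate receptors, and Camk2b were lower in this way (2 of 42; 2.40% of all genes). Grik5 had 77.8, 151, 154 and 147 CPM in SI_EE, against 169, 166, 158 and 156 CPM in SI_Con, and its unadjusted p with edgeR was 0.0531 (adjusted 0.404).

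Enriched environment in GH mice (GH_EE against GH_Con) changed no member past the threshold, but several members had groups that did not overlap. With edgeR, 0 of 42 members had an adjusted p under 0.05 (0.00491% of all genes) and 1, Grm2, an unadjusted p under 0.05 (6.32% of all genes); limma-voom called 0 and gave 1 unadjusted, DESeq2 called 0 (0.128% of all genes) and gave 0. Grm2, the group II autoreceptor, had 33.3, 41.9, 41.3 and 29.9 CPM in GH_EE, against 46.9, 42.8, 48.8 and 45.6 CPM in GH_Con. All 4 GH_EE values lay below all 4 GH_Con values (log2 fold change -0.33, SE 0.16, edgeR adjusted p 0.788). Grik5, Grin2c, Dlg4 and Homer3 were also lower without overlap (5 of 42 with Grm2; 4.06% of all genes). Grik3, Grm4, Grm7 and Cacng2 were higher without overlap (4 of 42; 4.50% of all genes). Cacng2, the AMPA receptor auxiliary subunit stargazin, had 158, 144, 150.4 and 143 CPM in GH_EE, against 129, 112, 137 and 127 CPM in GH_Con. Without the 5 libraries, 0 members were called (0.0% of all genes) and 6 had an unadjusted p under 0.05 (10.8% of all genes): Grik3, Cacng2 and Grin2a were higher in GH_EE, and Grm2, Cacng8 and Camk2a lower. The mean over the list differed by 0.04 log2 CPM (spread SD 0.08).

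The WT arm moved no member past the threshold in either housing. In SI_WT against SI_Con, edgeR gave 0 of 42 members with an adjusted p under 0.05 (0.0% of all genes) and 0 with an unadjusted p under 0.05 (3.84% of all genes); DESeq2 (0.00983% of all genes called) and limma-voom gave 0 of both kinds. No member had groups that did not overlap (0.796% of all genes higher, 1.31% lower). The smallest p values belonged to Grik1 and Grm2, with log2 fold changes from -0.47 to -0.27 and from -0.46 to -0.11 over the alternatives tried. Without the 5 libraries 2 members, the same pair, had an unadjusted p under 0.05 (4.35% of all genes), and 0 were called (0.00475% of all genes). Shank2, a scaffold, had 195, 219, 222 and 47.0 CPM in SI_WT, against 142, 109, 35.1 and 122 CPM in SI_Con, the largest positive log2 fold change of a member there (0.74, SE 0.48, edgeR adjusted p 1.0). The groups overlapped through SI_WT 4. In GH_WT against GH_Con, edgeR again gave 0 members of both kinds (0.0% and 3.42% of all genes), limma-voom 0 and 1, and DESeq2 0 (0.0491% of all genes) and 0. Camk2b had 776, 372, 882 and 553 CPM in GH_WT, against 828, 706, 926 and 833 CPM in GH_Con (log2 fold change -0.35, SE 0.19, edgeR adjusted p 1.0). The groups overlapped. Dlg4 was the only member without overlap, lower in GH_WT (2.02% of all genes lower, 2.20% higher). Without the 5 libraries, 0 members were called (0.0% of all genes) and 5 had an unadjusted p under 0.05 (6.0% of all genes): Camk2a, Dlg4, Cacng8 and Grik5 were lower in GH_WT and Grin3a higher.

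Isolation within the enriched groups (SI_EE against GH_EE) gave 0 members with an adjusted p under 0.05 in edgeR (0.00491% of all genes) and 5 with an unadjusted p under 0.05 (8.7% of all genes); DESeq2 (0.108% of all genes) and limma-voom called 0 and gave 3 and 4 unadjusted. Homer3, Grm4 and Grin2c were higher in SI_EE, and Dlg1 and Grm7 lower. Dlg1, the MAGUK SAP97, had 84.1, 147, 158 and 157 CPM in SI_EE, against 248, 222, 145 and 234 CPM in GH_EE. The groups overlapped through GH_EE 3 (log2 fold change -0.64, SE 0.24, edgeR adjusted p 0.497). Grm7, a presynaptic group III receptor, had 25.7, 47.9, 49.2 and 53.2 CPM in SI_EE, against 57.5, 58.0, 54.8 and 54.1 CPM in GH_EE. Every SI_EE value was below every GH_EE value, as it was for Camk2a (2 of 42; 2.01% of all genes), and no member was higher in this way (2.35% of all genes). Without SI_EE 1, 0 members were called (0.00483% of all genes) and 0 had an unadjusted p under 0.05 (3.72% of all genes), and the fold change of Homer3 was -0.18, against 3.40 with it. Without the long-gene-low libraries as well, the unadjusted count was again 0 (5.57% of all genes).

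Isolation within the WT arm (SI_WT against GH_WT) gave 0 members with an adjusted p under 0.05 in edgeR (0.0% of all genes) and 2 with an unadjusted p under 0.05 (5.37% of all genes), and DESeq2 (0.059% of all genes) and limma-voom called 0 and gave 2 unadjusted each. Grm2 had 39.6, 32.0, 36.6 and 38.9 CPM in SI_WT, against 46.9, 50.7, 44.7 and 51.1 CPM in GH_WT (log2 fold change -0.39, SE 0.16, edgeR adjusted p 0.838). Grin3a, a subunit that lowers calcium entry through NMDA receptors, had 33.6, 31.6, 29.1 and 14.6 CPM in SI_WT, against 34.7, 46.5, 37.5 and 41.0 CPM in GH_WT (log2 fold change -0.55, SE 0.23, edgeR adjusted p 0.864). For both genes all SI_WT values were below all GH_WT values (2 of 42; 2.24% of all genes). Cacng8 was higher in this way (1 of 42; 1.36% of all genes). Without the 5 libraries, 0 members were called (0.0095% of all genes) and 6 had an unadjusted p under 0.05 (8.11% of all genes): Grm2, Homer2 and Grin3a were lower in SI_WT, and Grik3, Cacng2 and Cacng8 higher. The thalamus and habenula list of 10 genes summed to 109 to 179 CPM in SI_WT and 163 to 601 CPM in GH_WT, with GH_WT 2 and GH_WT 4 highest. The part of that tissue in these values was not tested.

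Neither interaction moved a member past the threshold. For EE by housing, edgeR gave 0 members with an adjusted p under 0.05 (0.0% of all genes) and 3 with an unadjusted p under 0.05 (7.74% of all genes), Homer3, Grin2c and Grm4; DESeq2 (0.142% of all genes) and limma-voom called 0 and gave 1 and 0 unadjusted. Without SI_EE 1 the unadjusted count was 0 (6.38% of all genes). Without the long-gene-low libraries as well it was 5 (9.98% of all genes; 0 called, 0.0095% of all genes): Grik3, Dlgap1 and Grm7 had negative and Cacng3 and Dlg4 positive interaction terms. For the WT arm by housing, edgeR, DESeq2 and limma-voom gave 0 of both kinds (edgeR backgrounds 0.0% and 4.52% of all genes). Without the 5 libraries, 0 members were called (0.0142% of all genes) and 3 had an unadjusted p under 0.05 (6.85% of all genes), Dlgap1, Dlg4 and Grin3a. Dlgap1 had the smallest p in that fit (edgeR adjusted p 0.648). With all 24 libraries the smallest p values for this interaction were those of Grm2 and Dlg1. Their adjusted p ran from 0.728 upward over all alternatives. Contrasts that use GH_Con or SI_Con share those 4 libraries, so their values are not independent of each other.

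The test over all 6 groups gave 0 members with an adjusted p under 0.05 in edgeR (0.0491% of all genes) and 4 with an unadjusted p under 0.05 (8.23% of all genes), Homer3, Grm4, Grin2c and Grm2; DESeq2 called 1 (Grm4; 1.08% of all genes) and gave 2 unadjusted, limma-voom called 0 and gave 1. Homer3 had the smallest p (0.000221, edgeR adjusted p 0.155). Without SI_EE 1, 0 members were called (0.00965% of all genes), and those with an unadjusted p under 0.05 were Grin2c and Homer2 (7.89% of all genes). Without the long-gene-low libraries as well, 0 were called (0.0237% of all genes) and 8 had an unadjusted p under 0.05 (9.18% of all genes): Grm2, Dlgap1, Camk2a, Cacng2, Grik3, Cacng8, Dlg4 and Grin2c. Gria1 averaged 394 ± 17.9 CPM in SI_EE, 356 ± 69.0 in SI_WT, 358 ± 44.2 in SI_Con, 376 ± 18.8 in GH_EE, 363 ± 44.7 in GH_WT and 362 ± 15.4 in GH_Con (SD, n = 4; edgeR adjusted p 0.962). Grin1, without SI_EE 1, averaged 469 ± 12.5 CPM in SI_EE (n = 3), 481 ± 45.9 in SI_WT, 491 ± 39.3 in SI_Con, 488 ± 14.7 in GH_EE, 494 ± 26.3 in GH_WT and 477 ± 31.8 in GH_Con, a ratio of the highest to the lowest mean of 1.05. That was the smallest ratio of the 42 members. Gria2, Grin2a, Grin2b, Grm5 and Camk2a had edgeR adjusted p of 0.977, 0.965, 0.990, 0.937 and 0.898 over the 6 groups.

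Dlg4, which encodes PSD-95 and lies at chr11:70016942-70047522 on the plus strand, was highest in untreated GH mice. It had 719, 751, 708 and 721 CPM in GH_Con. The other groups had 409, 669, 661 and 651 CPM in SI_EE, 671, 638, 621 and 681 CPM in SI_WT, 649.7, 679.5, 640.1 and 602 CPM in SI_Con, 673, 642, 682 and 679 CPM in GH_EE, and 669, 599, 666 and 618 CPM in GH_WT. GH_Con 2, the highest, is a long-gene-low library, and Dlg4 averaged 0.06 log2 CPM higher in those 4 libraries than in the 19 retained ones. All 4 GH_Con libraries lay above all 20 others. Dlg4 was the only member of the 42 to stand apart in this way (2.38%; 0.0442% of all genes for GH_Con above the rest). It was noticed among 42 members and 6 groups, and edgeR gave log2 fold changes of -0.17 for SI_Con (SE 0.11, adjusted p 0.849), -0.12 for GH_EE (SE 0.11, adjusted p 0.913) and -0.18 for GH_WT (SE 0.11, adjusted p 1.0) against GH_Con. Without the 5 libraries, the value for SI_Con was -0.19 (SE 0.06, edgeR adjusted p 0.271). Over the 6 groups the adjusted p was 0.777, and 0.518 without them. GH_Con held 3 libraries with Xist and 1 without; with sex as a factor the log2 fold change of SI_Con against GH_Con was -0.16.

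Related genes outside the 42 were called in no contrast. Of 46 other receptors, auxiliary subunits and scaffold partners 45 were tested, and of 10 genes of glutamate release and clearance all 10 were; edgeR called 0 higher and 0 lower in every contrast. In the test over 6 groups 5 and 1 of them had an unadjusted p under 0.05. Slc17a6, the vesicular glutamate transporter VGLUT2 of thalamic neurons, averaged 52.9 ± 15.2 CPM in SI_EE, 32.8 ± 5.88 in SI_WT, 39.2 ± 9.64 in SI_Con, 37.7 ± 6.16 in GH_EE, 76.4 ± 44.8 in GH_WT and 31.1 ± 4.02 in GH_Con (edgeR adjusted p 0.348). Its high mean in GH_WT went with the thalamus and habenula list, which within that group was highest in GH_WT 2 and GH_WT 4. Over all libraries the summed list was highest in SI_EE 1 (679.6 CPM, against at most 601 CPM elsewhere), where Slc17a6 was at 68.5 CPM. The mean log2 CPM over the list was 3.78 in SI_EE 1, below GH_WT 2 (4.56) and GH_WT 4 (4.96). The part of that tissue was not tested. Lrrtm3, a postsynaptic adhesion protein, averaged 73.2 ± 8.50 CPM in SI_EE, 66.2 ± 7.73 in SI_WT, 71.1 ± 8.35 in SI_Con, 65.5 ± 8.77 in GH_EE, 53.1 ± 4.42 in GH_WT and 56.7 ± 3.94 in GH_Con (edgeR adjusted p 0.355).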

How the data were processed

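Medial prefrontal cortex RNA was sequenced from Illumina libraries (source: the labels' protocols). The authors deposited 1 table of raw read counts per gene, whole numbers without normalisation; each of its 24 count columns matched a sample title. Build mm10 comes from the submitters' processing notes. Aligner, counter and strand use: not given in the sources used here.

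Differences were tested by the quasi-likelihood method of edgeR 4.0.16 (R 4.3.3) in a single model of the 6 groups, after filterByExpr and TMM scaling, with Benjamini-Hochberg adjustment over all 20354 genes (threshold 0.05). Log2 CPM values include a prior count of 2. Alternatives were DESeq2 1.42.0, limma-voom (limma 3.58.1), RLE factors, other filters, fits of the compared groups, sex read from Xist, a replicate block and each library left out. The model was also run on simulated counts with set changes in SI_Con. That simulation held no library like SI_EE 1 or the long-gene-low libraries, so it does not test how the model handles them. Positions and exonic lengths are from GENCODE M21.

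The members, the related lists and the marker lists were chosen with earlier results of these data known, so no list was tested as a set. Members were named if past the threshold, among the 2 smallest p of a contrast or among 13 core genes; others were chosen after their values were seen. Leaving out SI_EE 1 together with the 4 long-gene-low libraries was added after seeing the data. Values of some single genes are not reported here.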

Additional observations from a re-analysis of the deposited data

Results flagged for a closer look

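Within each group of 4, the gap between the highest or lowest library and its neighbour was compared with Dixon's critical value of 0.829, for the mean over the list and 13 named members. Of 84 groups examined 13 had such a library. Chance gives about 1 in 20 for independent groups. The 84 come from the same 24 libraries and are not independent, so the 13 cannot be set against that rate. Of the 13, 8 were SI_EE 1. There Homer3 was at 224 CPM, Grm4 at 266 CPM and Grin2c at 255 CPM, each above the rest of its group. Gria2 was at 383 CPM, Grin1 at 297 CPM, Grin2a at 110.2 CPM, Dlg4 at 409 CPM and Camk2a at 504 CPM, each below it.

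The mean over the list was 6.39 log2 CPM in SI_WT 4, against 6.90 to 6.98 in the rest of its group. Homer3 was at 4.05 CPM in GH_WT 2, against 7.17 to 7.36 CPM. Gria2 was at 728 CPM in GH_WT 3, against 539 to 569.9 CPM. Shank3 was at 246 CPM in GH_EE 2, against 282 to 288 CPM, and Homer2 at 69.2 CPM in GH_EE 1, against 52.0 to 54.8 CPM.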

How the results depend on the processing

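The count of called members was 0 of 42 in most alternatives. In SI_EE against SI_Con it was 1 with DESeq2 (Grm4) and ranged from 0 to 2 with 1 library left out; the 2, Homer3 and Grm4, came without SI_EE 2 (edgeR adjusted p 0.0465 each). In the test over 6 groups it was 1 with DESeq2 and ranged from 0 to 1 with 1 library left out (Homer3 without SI_EE 2, 3 or 4, lowest edgeR adjusted p 0.0271). Each such fit keeps SI_EE 1, and the cause was not tested. The log2 fold change of Homer3 in SI_EE against SI_Con was 3.38 with all libraries, -0.18 without SI_EE 1 and -0.15 without the long-gene-low libraries as well; in SI_EE against GH_EE it was 3.40, -0.18 and -0.17. With 1 library left out, these ranged from -0.18 to 3.76 and from -0.18 to 3.78. The list difference in GH_EE against GH_Con was 0.04 log2 CPM as a mean over members. Taken from the median level over members in each library it was 0.16, while the median log2 fold change of the members was 0.05. DESeq2 gave no adjusted p for Homer3 in 4 contrasts and for Grin2c in 2. Recomputed fold changes were compared only for the 2 members with the smallest p in each contrast. Of those with an adjusted p, 411 kept their direction and side of the threshold. A further 3 passed it (Homer3 and Grm4 as above) and 4 changed sign, the Homer3 values above. Sign changes of other members are not in these counts. In SI_EE against SI_Con, 24 of 42 members were lower with all libraries (49.3% of all genes) and 13 of 42 without SI_EE 1 (49.0% of all genes). Counts at unadjusted p under 0.05 were within 1.5 times the reported one in 165 cases and outside in 79.

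With the replicate number as a replicate block, 0 members were called in each of the 11 contrasts. The numbers share no stated source: deviations of same-numbered libraries correlated with a median of -0.00547 over 60 pairs (18 above 0.1), and 5 of 24 libraries correlated best with their own number.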

Other observations

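Dlg1 and Dlg2, members of the same MAGUK family, each fell into separate ranges across libraries; they were picked out after their values were seen. In the 19 retained libraries Dlg1 was at 114 to 158 CPM in 10 and at 202 to 248 CPM in 9, with none between. Of the other libraries, SI_EE 1 was below both ranges at 84.1 CPM and SI_WT 4 between them at 194 CPM. Dlg2 was at 230.5 to 306 CPM in 4 of the 19 libraries and at 397 to 510.3 CPM in the other 15. Of the libraries left out, SI_EE 1 (95.6 CPM) and SI_Con 2 (169 CPM) were below both Dlg2 ranges, and GH_Con 2 lay between them at 383 CPM. SI_WT 4 (242 CPM) and SI_Con 3 (269 CPM) lay in the lower range.

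Camk2b was at 372 CPM in GH_WT 2 and 553 CPM in GH_WT 4, below the 706 to 926 CPM of GH_Con. Those are the libraries in which the thalamus and habenula list summed highest in GH_WT (393 and 601 CPM). Elsewhere the 2 values did not run together: SI_WT 4 had Camk2b at 544 CPM with a list sum of 109 CPM. SI_EE 1 had Camk2b at 705 CPM with the highest sum, 679.6 CPM, and SI_EE 4 had 594 CPM with 251 CPM. By mean log2 CPM over the same list, however, SI_EE 1 (3.78) lay below GH_WT 2 (4.56) and GH_WT 4 (4.96). The part of that tissue in Camk2b was not tested. The other marker lists had these ranges of summed CPM over the 23 libraries without SI_EE 1: striatum 335 to 1899.9, interneurons 991 to 1321, astrocytes 3485 to 6028, oligodendrocytes 3719 to 6054, oligodendrocyte precursors 246 to 382, microglia 269 to 592, and vessels, meninges and choroid plexus 366 to 1424.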
